A study of Mus musculus with 6 samples.

Results

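The genes described here are those of 12 families of transcription factors, the proteins that bind DNA at promoters and enhancers and set the rate at which genes are copied into RNA, in the epididymal white adipose tissue of mice. They were chosen by symbol, with earlier results of these data known, as names that begin with Klf, Sox, Tbx, Stat, Irf, Tead, Gata or Smad and a digit, with Fox, Hox or Cebp and a letter, or with Nr followed by digit, letter and digit. Of the 3162 genes held in the deposited files, 33 met that rule, and the GRCm38 annotation has 204 protein-coding genes with such names. The other genes of these families were not analysed here.

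Tissue came from wild-type male C57BL/6J mice aged 16 weeks. One group of 3 mice was deprived of food for 24 h, and the other 3 mice were fed normally. Total RNA from 70 mg of tissue per mouse was sequenced in bulk, one library per mouse, and the values are FPKM, read fragments scaled to transcript length and to the number mapped in the library. The summed FPKM over the genes held was 180058 to 209201 per library, which is not a depth, and depth is unknown.

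KLF proteins, GATA factors and nuclear receptors themselves bind DNA through zinc fingers. SOX proteins use an HMG box, HOX proteins a homeodomain, FOX proteins a forkhead domain and C/EBP proteins a basic leucine zipper domain. In fat, C/EBPα keeps adipocytes differentiated, STAT and SMAD proteins carry signals from cytokine and TGF-β family receptors to the nucleus, TEAD proteins receive the Hippo pathway, and HOX genes record the position of a depot along the body. Several SOX, KLF and GATA members are best known from the endothelium of blood vessels. The symbol rule also took 3 genes that belong to no DNA-binding family: Irf2bp2 and Irf2bpl, which encode proteins related to a partner of IRF2, and Cebpzos, a gene on the strand opposite Cebpz.

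Most of these genes were higher in fasted than in fed tissue. The test took genes averaging 1 FPKM or more, which 32 of the 33 did. Among them 24 (75.0%) were called higher and 6 (18.8%) lower at an adjusted p under 0.05, and 2 were not called (limma on log2(FPKM + 1), Benjamini-Hochberg over the 2999 genes tested). The background is high: 41.1% of all genes tested were called higher and 49.4% lower, 90.5% in either direction. The deposited genes are part of the annotated genes and by what rule they were taken is not stated. If they were taken by a difference between these same libraries, the adjusted p-values given here are no independent evidence of one. The median log2 fold change was 0.80 over the 32 genes and -0.34 over all 2999, and no set test was made of that difference. In 22 of the 33 genes (66.7%) every fasted value lay above every fed value, against 41.9% of all genes held, and in 6 (18.2%) every fasted value lay below, against 51.5%. Separate groups were found in 93.4% of all genes held. The groups overlapped in Cebpa, Irf9, Klf2, Klf6 and Tbx2.

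**Figure D1:**
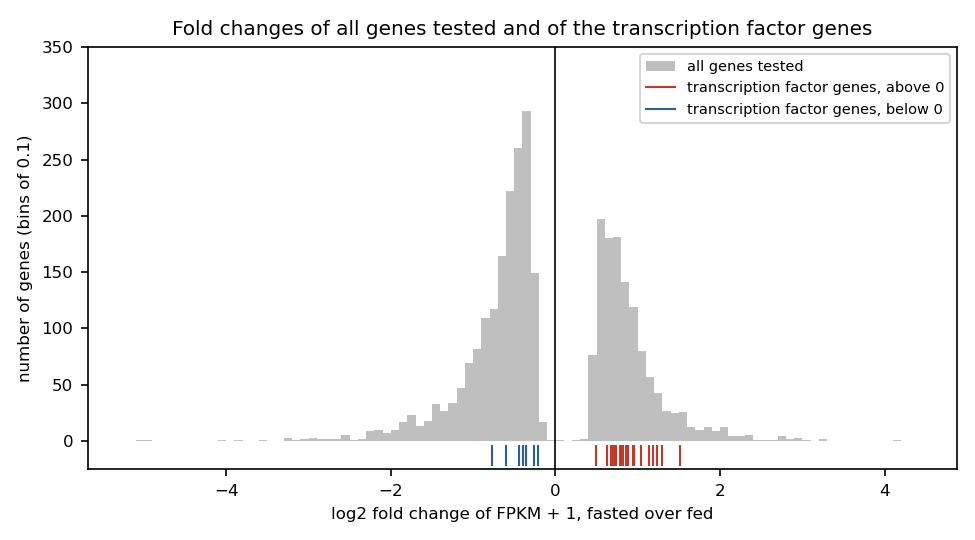
Histogram of the log2 fold change (fasted over fed, FPKM + 1) of all 2999 genes tested, with a tick under the axis for each of 31 of the transcription factor genes tested. Ratios near 0 are almost absent from the genes held, and 24 ticks lie in the right-hand hump with the called rises, from 0.49 to 1.51.

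The changes were of moderate size. Rises ran from 0.49 (Nr2c2) to 1.51 (Tead1) on the log2 scale and called falls from -0.36 (Cebpa) to -0.77 (Hoxc5). Small rises had little chance of being seen, since 99% of the positive fold changes among all genes tested exceeded 0.42, while negative ones reached up to about -0.2. When p-values were adjusted over all 55450 annotated genes, with the genes not held given the largest possible p, 2 of the 24 rises passed, Tead1 (adjusted p = 0.0375) and Foxc1 (0.039), and 0 of the falls. The other 30 genes then had adjusted p of 0.0613 or more, against 5.74% of all genes tested passing as higher and 6.4% as lower. With median-ratio scaling of the libraries, which moved the median of all genes by 0.19, the rises again numbered 24 but the falls numbered 1, Hoxc5, while the share of higher genes among all calls was 61.1%, against 45.4% without that scaling.

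**Figure D2:**
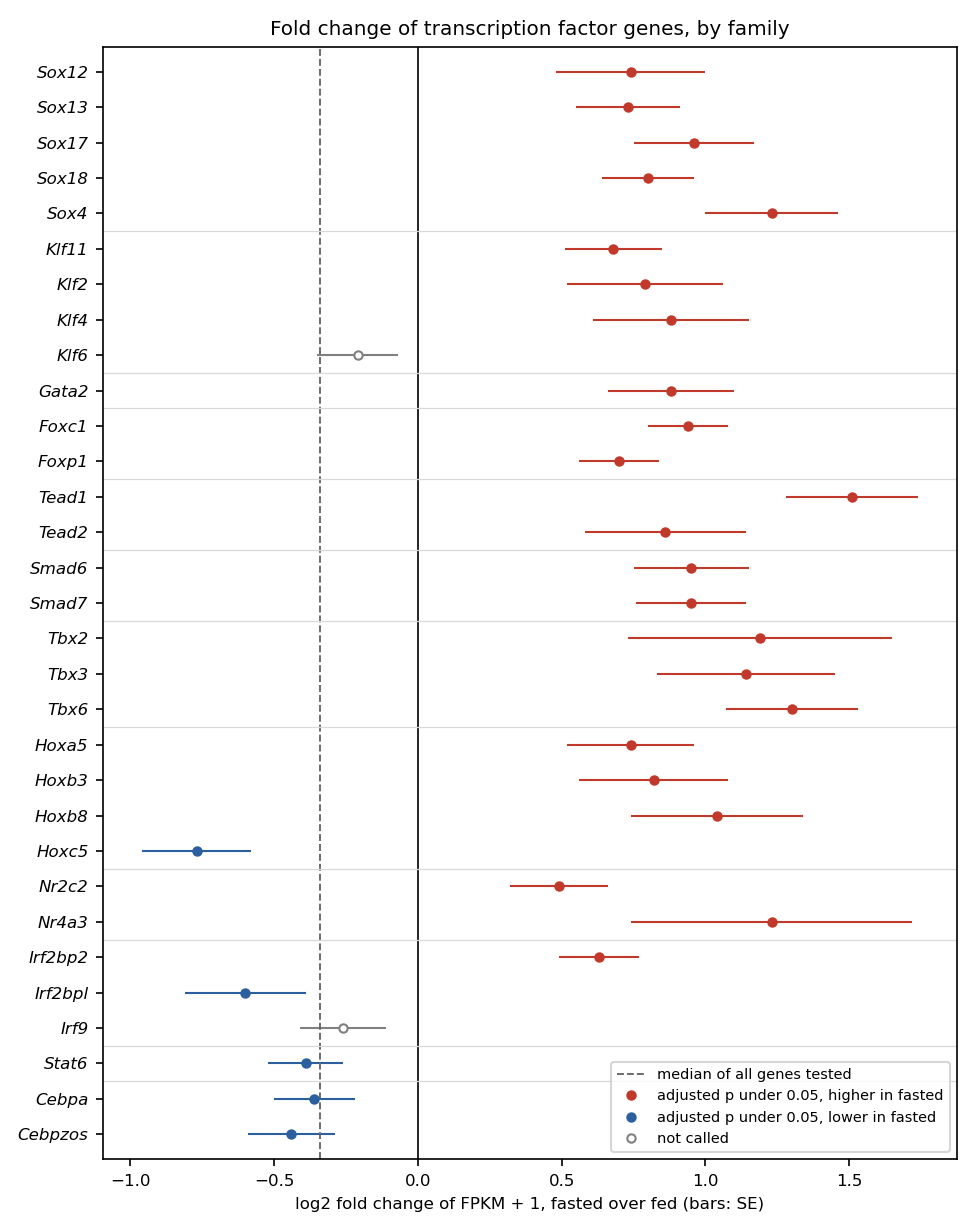
Log2 fold change of FPKM + 1 (fasted over fed, bars show the SE) of 31 of the 32 genes tested, ordered by family, with the median of all genes tested as a dashed line. The SOX, GATA, FOX, TEAD, SMAD, TBX and nuclear receptor genes lie wholly to the right of 0, and Stat6 and the C/EBP symbols to the left.

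Markers of cell types also differed between the groups, in both directions. In bulk tissue, fewer cells of a type and less RNA per cell cannot be told apart. Counts of markers stand against the 41.1% of all genes tested that were called higher and the 49.4% called lower. Markers not held could not be read, so the counts do not show how all listed markers of a cell type moved. Of 12 endothelial markers listed, 4 were held, Pecam1, Eng, Tek and Emcn, and all 4 rose. Their summed level was 319 to 416 FPKM in fasted tissue and 190.5 to 212 FPKM in fed tissue, and none was at 0. All 5 erythrocyte markers rose, with sums of 3955 to 10140 FPKM in fasted tissue and 1892 to 2800 FPKM in fed tissue. The 5 held of 15 adipocyte markers fell, with sums of 3138 to 3735 FPKM in fasted tissue and 5695 to 6809 FPKM in fed tissue. Most of each sum was Retn, at 2670 to 2895 FPKM in fasted and 3761 to 4786 FPKM in fed tissue. Its fall of -0.58 was the smallest of the 5. The Retn call was lost with median-ratio and quantile scaling (limma adjusted p = 0.0752 and 0.0655). Of 10 mural cell markers, 7 were held, 5 of them higher and 2 lower, and of 12 progenitor or fibroblast markers 5 were held, 2 higher and 3 lower. A single macrophage marker, Itgam, was held of 15 and fell, and a single T cell marker, Cd3e, of 12 was held at 0.89 to 0.98 FPKM in fasted and 0.15 to 0.23 FPKM in fed tissue, under the level tested. The 1 epididymal marker held of 10, Adam7, was at 0 in 2 of the fasted libraries and at 0.03 FPKM in the other, and at 0.03, 2.05 and 0.02 FPKM in fed replicates 1 to 3. No marker (0) of B cells, mesothelium or skeletal muscle was among the genes held. With adjustment over all annotated genes, 1 endothelial, 0 erythrocyte and 3 adipocyte markers passed in these directions. The part of these cell types in the results was not tested.

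The promoters of 23 of the 33 genes were matched in the RefSeq promoter table (GRCm38.p6, 250 bases before to 50 after the start). The matched start lay 1728 bases from the annotated gene start for Foxp1, 1043 for Nr2c2 and 414 for Irf9. For the other matched genes it lay at most 165 bases away. Those of Foxc1 and Tbx6, the matched rises with the smallest p, and of Stat6, the matched fall of a DNA-binding factor with the smallest p, are printed 5′ to 3′. Capitals mark matches, on either strand, to any of 10 short motifs, and in these 3 promoters no matches overlapped.
Foxc1 (chr13:31806396-31806695, plus strand): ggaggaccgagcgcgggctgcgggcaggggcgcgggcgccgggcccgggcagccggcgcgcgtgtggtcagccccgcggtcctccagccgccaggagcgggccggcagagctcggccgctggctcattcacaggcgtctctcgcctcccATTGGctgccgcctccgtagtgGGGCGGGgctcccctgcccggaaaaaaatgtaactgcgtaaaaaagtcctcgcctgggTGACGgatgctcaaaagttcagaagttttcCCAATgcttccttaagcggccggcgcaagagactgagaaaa
Tbx6 (chr7:126781233-126781532, plus strand): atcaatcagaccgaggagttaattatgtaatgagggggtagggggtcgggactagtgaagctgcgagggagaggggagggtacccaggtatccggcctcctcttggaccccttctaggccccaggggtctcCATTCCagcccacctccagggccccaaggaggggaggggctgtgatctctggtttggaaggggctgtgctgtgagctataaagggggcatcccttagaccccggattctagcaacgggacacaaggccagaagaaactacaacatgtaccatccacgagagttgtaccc
Stat6 (chr10:127642736-127643035, plus strand): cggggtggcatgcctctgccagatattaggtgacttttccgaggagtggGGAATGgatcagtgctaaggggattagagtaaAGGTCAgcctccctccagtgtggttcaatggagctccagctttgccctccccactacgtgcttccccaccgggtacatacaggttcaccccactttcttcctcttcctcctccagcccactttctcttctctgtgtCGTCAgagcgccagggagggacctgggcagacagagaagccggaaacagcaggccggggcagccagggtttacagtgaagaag

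The motif of SP and KLF proteins, GGGCGGG, occurred in 11 of the 17 matched promoters of genes that rose, Foxc1 among them, in 0 of the 4 matched promoters of genes that fell, and in 25.6% of the 32817 promoters of the table. Those 11 include Foxp1 and Nr2c2, whose matched starts lay far from the annotated gene starts. CCAAT occurred in 8 of 17 and 0 of 4 (37.4% of all promoters). The core of cAMP response elements, TGACG, was in 7 of 17 and 2 of 4 (20.8%), the TEAD motif GGAATG in 4 of 17 and 1 of 4 (14.7%), and the core nuclear receptor site AGGTCA in 2 of 17 and 2 of 4 (16.3%). GTAAACA of FOX proteins and AGAACA, one arm of a glucocorticoid receptor site, were each found in 1 of 17 and 0 of 4 (3.65% and 19.0%). GGGTGTG of KLF proteins stood in 2 and 1 (7.95%), the E-box CACGTG in 2 and 0 (7.15%) and AGATAA of GATA factors in 0 and 0 (11.2%). The matched promoters were also richer in G and C, with a median of 66.3% against 52.7% over the table, and whether base composition sets the share of GGGCGGG was not tested.

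All 5 SOX genes rose, and their median fold change was 0.80 on the log2 scale. Sox17 and Sox18, which drive the formation of arteries and lymphatic vessels, were expressed at the levels highest among the 5. Sox18, on chromosome 2 (181669836 to 181671640, GRCm38), had 111, 87.9 and 75.0 FPKM in fasted replicates 1 to 3, against 50.2, 53.9 and 49.8 FPKM in fed replicates 1 to 3. Every fasted mouse was thus above every fed mouse, and the fed values were tight (log2 fold change 0.80 ± 0.16, SE; limma adjusted p = 0.00453). Sox17, on chromosome 1 (4490931 to 4497354), had 36.8, 26.5 and 21.0 FPKM in fasted tissue, against 11.4, 14.3 and 15.3 FPKM in fed tissue (0.96 ± 0.21; adjusted p = 0.00653). Its groups were separate as well. The endothelial marker sums given above moved the same way, as did the 41.1% of all genes tested that were called higher. The part of endothelial cells in these rises was not tested. Sox4, a factor of progenitor cells in many tissues, showed the largest rise of the family, at 12.7, 9.61 and 8.65 FPKM in fasted tissue, against 3.11, 5.54 and 3.04 FPKM in fed tissue (1.23 ± 0.23; adjusted p = 0.00394). Sox13, of the SoxD group, had 16.6, 13.4 and 10.5 FPKM in fasted and 8.49, 7.69 and 6.69 FPKM in fed tissue (0.73 ± 0.18). Sox12, a SoxC relative of Sox4, ranged from 2.38 to 4.89 FPKM in fasted and from 0.98 to 1.99 FPKM in fed tissue (0.74 ± 0.26; adjusted p = 0.0265). In these 5 genes fasted replicate 1 was the highest and fasted replicate 3 the lowest fasted library. The call of Sox12 was lost without fed replicate 3 (adjusted p = 0.0825) and without fasted replicate 1 (0.0728).

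Of the 5 KLF genes, Klf2, Klf4 and Klf11 rose, Klf6 was not called, and Klf14 lay under the level needed for the test. Klf2, which in endothelium is switched on by blood flow, was the most abundant of the 5, with 165, 122 and 79.6 FPKM in fasted tissue, against 69.4, 54.0 and 81.2 FPKM in fed tissue (0.79 ± 0.27; adjusted p = 0.0247). Its groups overlapped, since fasted replicate 3 was below fed replicate 3. Klf4, with roles in endothelium, in smooth muscle and early in adipocyte differentiation, had 54.5, 60.3 and 35.3 FPKM in fasted tissue, against 28.5, 18.4 and 33.7 FPKM in fed tissue (0.88 ± 0.27; adjusted p = 0.0167). Here the groups were separate, but by little. Klf11, a repressor inducible by TGF-β and linked to glucose control, had 11.03, 8.06 and 7.59 FPKM in fasted and 4.68, 4.89 and 5.83 FPKM in fed tissue (0.68 ± 0.17; adjusted p = 0.00937). Klf6 had 35.4, 32.3 and 26.7 FPKM in fasted and 38.8, 37.5 and 33.1 FPKM in fed tissue (-0.21 ± 0.14; adjusted p = 0.172). The call of Klf2 was lost without fed replicate 2 or without fasted replicate 1 or 2 (adjusted p of 0.0802, 0.0755 and 0.0589), and that of Klf4 without fasted replicate 1 or 2 (0.055 and 0.0522).

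Klf14, known in humans from variants that act on many genes of fat at a distance, was low in both groups. It had 0.04, 0.13 and 0.27 FPKM in fasted tissue, against 0.84, 1.53 and 0.91 FPKM in fed tissue. These were the smallest levels of the 33 genes in fasted tissue, though not in fed tissue, where Nr4a3 was lower. The means of 0.147 ± 0.116 and 1.09 ± 0.38 FPKM (SD, n = 3 each) give a ratio of 0.134. With no filter on low values its log2 fold change was -0.86 ± 0.17 (limma adjusted p = 0.00476), a scale that understates changes so near 0.

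The 1 GATA gene and both FOX genes rose. Gata2, which holds back adipocyte differentiation and is active in endothelial and blood-forming cells, had 13.0, 10.7 and 7.20 FPKM in fasted tissue, against 5.29, 4.14 and 5.61 FPKM in fed tissue (0.88 ± 0.22; adjusted p = 0.00873). Foxc1, a regulator of vessel and mesenchyme development, was a low but even gene, with 3.29, 3.46 and 3.22 FPKM in fasted tissue, against 1.34, 1.14 and 1.26 FPKM in fed tissue. This rise of 0.94 ± 0.14 (adjusted p = 0.00211) kept its call under all 12 alternatives in which it was tested. Foxp1, a forkhead repressor that in mouse fat restrains the turn to beige cells, had 8.59, 7.54 and 6.77 FPKM in fasted tissue, against 4.29, 4.22 and 4.33 FPKM in fed tissue (0.70 ± 0.14; adjusted p = 0.00453). Its fed values were nearly equal, and the groups were separate. The exons of Foxp1 overlap Gm20696 on the same strand. Foxo1 and Foxo3, the forkhead factors that insulin keeps out of the nucleus, were not analysed here.

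Tead1 showed the largest rise of all 33 genes on the log2(FPKM + 1) scale. This partner of the Hippo pathway's coactivators YAP and TAZ, on chromosome 7 (112679318 to 112906807), had 33.6, 48.8 and 26.4 FPKM in fasted tissue, against 11, 10.4 and 13.8 FPKM in fed tissue. The lowest fasted value was well above the highest fed value (1.51 ± 0.23; limma adjusted p = 0.00203), and the call held under all 13 alternatives, with fold changes of 1.28 to 1.71 when any one library was left out. Tead2, expressed in embryonic and progenitor cells, had 11.6, 6.74 and 5.21 FPKM in fasted tissue, against 3.45, 4.78 and 2.94 FPKM in fed tissue (0.86 ± 0.28; adjusted p = 0.0202). The groups were separate, with fasted replicate 1 far above the other fasted mice, and without that mouse the fold change was 0.57 (adjusted p = 0.0472). Its call was lost without fed replicate 3 (adjusted p = 0.0623), and its exons overlap Cd37 on the opposite strand, so reads of both genes could not be told apart.

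Both SMAD genes held encode inhibitors rather than carriers of the signal. Smad6, which blocks BMP receptors, had 8.21, 13.3 and 11.3 FPKM in fasted tissue, against 6.00, 4.03 and 5.35 FPKM in fed tissue (0.95 ± 0.20; adjusted p = 0.00602). Smad7, which blocks TGF-β receptors as well, had 5.79, 3.88 and 3.71 FPKM in fasted tissue, against 1.91, 1.49 and 1.96 FPKM in fed tissue (0.95 ± 0.19; adjusted p = 0.00472). In each the fasted and fed values were separate. Smad6 differed from most of the rises in that fasted replicate 1 was its lowest fasted library.

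The 3 T-box genes rose by a median of 1.19. Tbx3, a repressor that acts in limb, heart and mammary development, had 16.0, 13.2 and 10.4 FPKM in fasted tissue, against 6.13, 2.89 and 8.24 FPKM in fed tissue (1.14 ± 0.31; adjusted p = 0.0124). Tbx6, known from the mesoderm that forms the somites, had 7.30, 7.93 and 4.09 FPKM in fasted tissue, against 1.79, 2.21 and 1.80 FPKM in fed tissue (1.30 ± 0.23; adjusted p = 0.00332). Both had separate groups. Tbx2, a close relative of Tbx3, had 18.7, 7.29 and 5.03 FPKM in fasted tissue, against 5.74, 3.16 and 1.94 FPKM in fed tissue, so that fasted replicate 3 fell within the fed range (1.19 ± 0.46; adjusted p = 0.0384). Without fasted replicate 1 the Tbx2 fold change was 0.70 (adjusted p = 0.102), and its call also ended when fed replicate 2, fed replicate 3 or fasted replicate 2 was dropped (0.0895, 0.117 and 0.0526). The exons of Tbx3 overlap Tbx3os1 on the opposite strand.

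**Figure D3:**
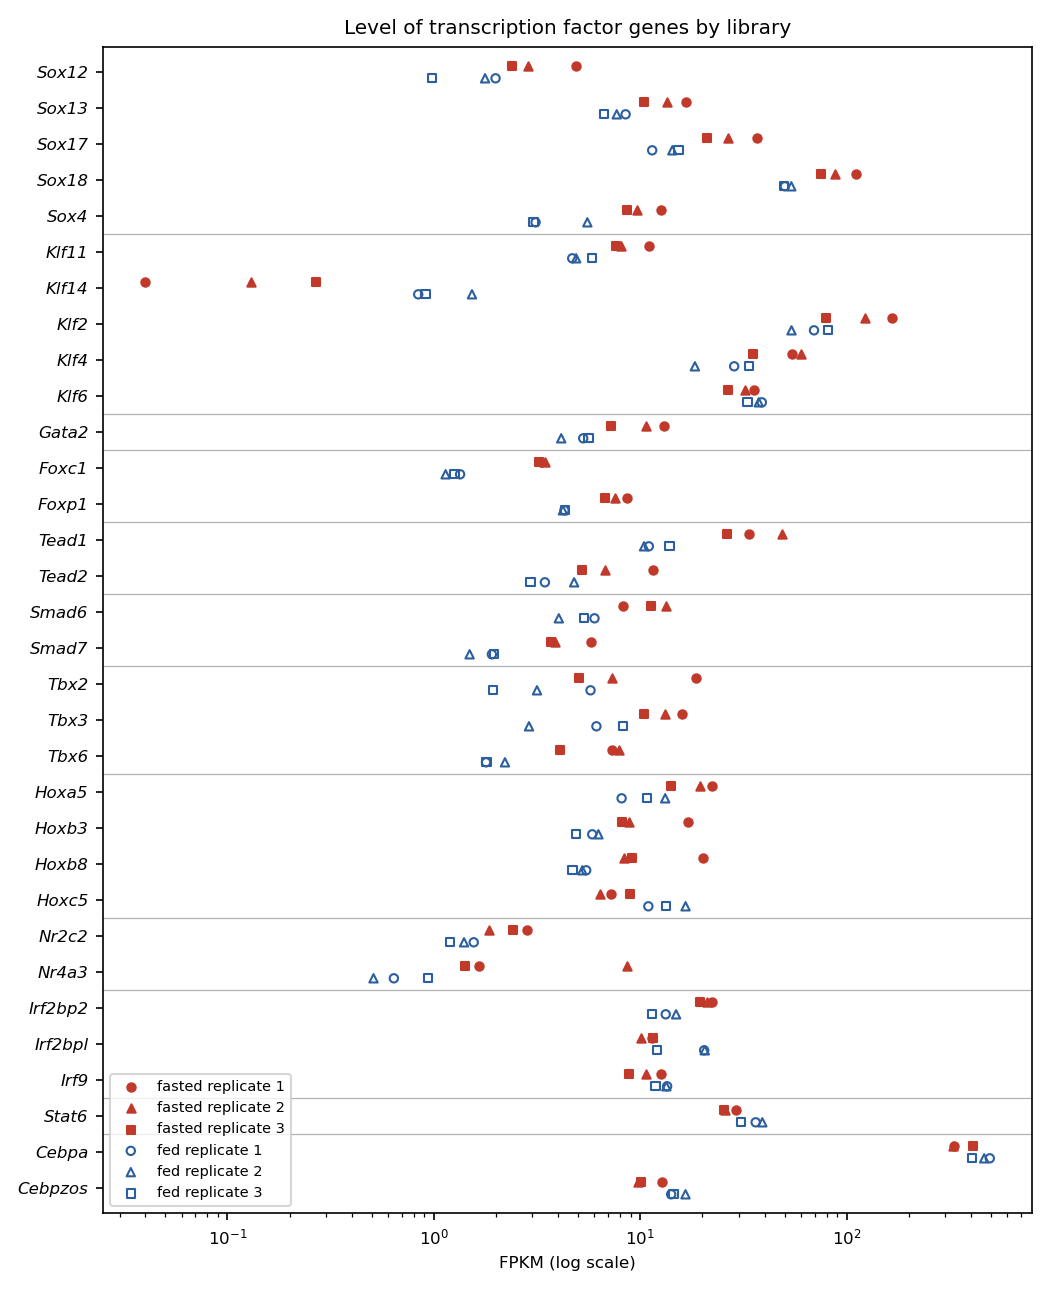
FPKM (log scale) of 32 of the 33 genes in each library, fasted in filled red symbols above fed in open blue symbols, with horizontal lines between families. Klf14 stands alone under 0.3 FPKM in fasted tissue, Cebpa is the highest at 326 FPKM or more in all 6 libraries, and fasted replicate 2 stands apart for Nr4a3.

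Of 4 HOX genes held, 3 rose and 1 fell. Hoxa5, on chromosome 6 (52201754 to 52204587), a gene active in adult white fat, had 22.3, 19.4 and 14.1 FPKM in fasted tissue, against 8.12, 13.2 and 10.8 FPKM in fed tissue (0.74 ± 0.22; adjusted p = 0.0148). Hoxb3 and Hoxb8 lie in the same cluster on chromosome 11, 38.0 kb apart. Hoxb8 had 20.1, 8.31 and 9.15 FPKM in fasted tissue, against 5.47, 5.24 and 4.69 FPKM in fed tissue (1.04 ± 0.30; adjusted p = 0.0138). Hoxb3 had 17.0, 8.79 and 8.12 FPKM in fasted tissue, against 5.85, 6.27 and 4.87 FPKM in fed tissue (0.82 ± 0.26; adjusted p = 0.0198). For both, fasted replicate 1 was far above the other fasted mice, and without it the fold changes were 0.67 for Hoxb8 and 0.51 for Hoxb3, still called (adjusted p = 0.0135 and 0.0287). The Hoxb3 call was lost without fed replicate 3 (0.0596).

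Hoxc5, on chromosome 15 (102967443 to 103017429), went the other way. It had 7.19, 6.35 and 8.96 FPKM in fasted tissue, against 10.9, 16.6 and 13.3 FPKM in fed tissue, with separate groups. Its fold change of -0.77 ± 0.19 (adjusted p = 0.00823) was the deepest called fall of the 32 genes and the one fall that was also called with median-ratio scaling. Its annotated exons overlap those of Hoxc10 on the same strand, and those of Hoxb3 overlap Hoxb3os on the opposite strand, so their FPKM may hold shared reads.

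The 2 nuclear receptor genes held by the rule rose, both from low levels. Nr4a3, an immediate-early orphan receptor induced by cAMP, had 1.66, 8.63 and 1.41 FPKM in fasted tissue, against 0.64, 0.51 and 0.94 FPKM in fed tissue. A single mouse, fasted replicate 2, carried most of the rise (1.23 ± 0.49; adjusted p = 0.0431), and without it the fold change was 0.59 (adjusted p = 0.0457). Quantile scaling ended the call (0.0873), as did leaving out any 1 fed library (0.0678 to 0.105), and the fold change was 1.88 with a pseudocount of 0.1. Nr2c2, the orphan receptor TR4, had 2.83, 1.86 and 2.42 FPKM in fasted tissue, against 1.56, 1.40 and 1.2 FPKM in fed tissue (0.49 ± 0.17; adjusted p = 0.028). Quantile scaling ended that call (0.0583), as did the loss of fed replicate 2, fed replicate 3, fasted replicate 1 or fasted replicate 3 (0.0526 to 0.0778). The exons of Nr2c2 overlap Mrps25 on the opposite strand. Nr3c1, Nr1h3, Nr1d1 and Nr1d2 were not analysed here.

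Stat6 was called lower and Irf9 was not called. Stat6, which acts below the receptors of IL-4 and IL-13, had 29.0, 25.6 and 25.4 FPKM in fasted tissue, against 36.2, 39.0 and 30.8 FPKM in fed tissue (-0.39 ± 0.13; adjusted p = 0.0246). The fasted and fed mice were separate. Irf9, part of the complex that binds interferon-stimulated genes, had 12.6, 10.7 and 8.81 FPKM in fasted and 13.5, 13.4 and 11.9 FPKM in fed tissue, with overlap (-0.26 ± 0.15; adjusted p = 0.129). With median-ratio scaling Stat6 was not called (-0.19; adjusted p = 0.168), nor under quantile scaling (-0.25; 0.066) or when fed replicate 1, fed replicate 2, fasted replicate 2 or fasted replicate 3 was dropped (0.0622 to 0.0753). The exons of Stat6 overlap Nab2 on the opposite strand, and those of Irf9 overlap Rnf31.

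The IRF2-binding protein genes split. Irf2bp2, a corepressor gene, had 22.3, 21.0 and 19.5 FPKM in fasted tissue, against 13.3, 14.9 and 11.4 FPKM in fed tissue (0.63 ± 0.14; adjusted p = 0.00614). Irf2bpl had 11.4, 10.1 and 11.5 FPKM in fasted tissue, against 20.4, 20.5 and 12.0 FPKM in fed tissue (-0.60 ± 0.21; adjusted p = 0.0269). Both pairs of groups were separate, Irf2bpl only just, because fed replicate 3 lay near the fasted values. Median-ratio scaling ended the Irf2bpl call (-0.41; adjusted p = 0.0974), as did the fits without any 1 library other than fed replicate 3 (0.0528 to 0.0857).

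Cebpa, on chromosome 7 (35119293 to 35121928), had the highest level of the 33 genes. It had 329, 326 and 407 FPKM in fasted tissue, against 493, 463 and 404 FPKM in fed tissue, means of 354 ± 45.9 and 454 ± 45.3 FPKM (SD, n = 3 each). Fasted replicate 3 and fed replicate 3 had nearly equal values, so the groups overlapped (-0.36 ± 0.14; adjusted p = 0.0428). Neither median-ratio scaling (-0.15, adjusted p = 0.356) nor quantile scaling (-0.27, adjusted p = 0.161) gave a call. Nor did dropping fed replicate 1, fed replicate 2, fasted replicate 1 or fasted replicate 2 (0.0898 to 0.134). The adipocyte marker sums given above, mostly Retn, moved the same way, as did the 49.4% of all genes tested that were called lower. The part of adipocytes in this fall was not tested. Cebpzos had 12.8, 9.71 and 10.1 FPKM in fasted tissue, against 14.1, 16.6 and 14.5 FPKM in fed tissue (-0.44 ± 0.15; adjusted p = 0.0222). Its exons overlap Cebpz on the opposite strand, and its call ended under median-ratio scaling (-0.25; 0.109) and when fed replicate 2, fasted replicate 2 or fasted replicate 3 was dropped (0.0608 to 0.0796). Cebpb and Cebpd were not analysed here.

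The rises were not even across the fasted mice. Fasted replicate 1 was the highest fasted library for 18 of the 24 genes that rose (75.0%) and fasted replicate 3 the lowest for 21 (87.5%), against 62.3% and 71.8% of the 1232 genes called higher in all. Relative to the fed mean of log2(FPKM + 1), the median over the 24 genes was 1.22 in fasted replicate 1, 0.84 in replicate 2 and 0.53 in replicate 3. The 4 endothelial markers had medians of 0.93, 0.90 and 0.57, and their summed level was likewise lowest in fasted replicate 3. Adipocyte markers summed highest there among the fasted mice, at 3735 FPKM, and so did erythrocyte markers, at 10140 FPKM. Progenitor or fibroblast markers summed highest in fasted replicate 2 (1632 FPKM), where Dcn alone had 1403 FPKM. Mural cell markers summed highest in fasted replicate 1 (342.5 FPKM). The 5 mural markers called higher were each highest in fasted replicate 1 and lowest in fasted replicate 3, Tagln at 130, 123 and 74.35 FPKM in replicates 1 to 3. The 2 called lower, Mcam and Cspg4, were lowest in fasted replicate 2. The part of cell types in this order was not tested.

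**Figure D4:**
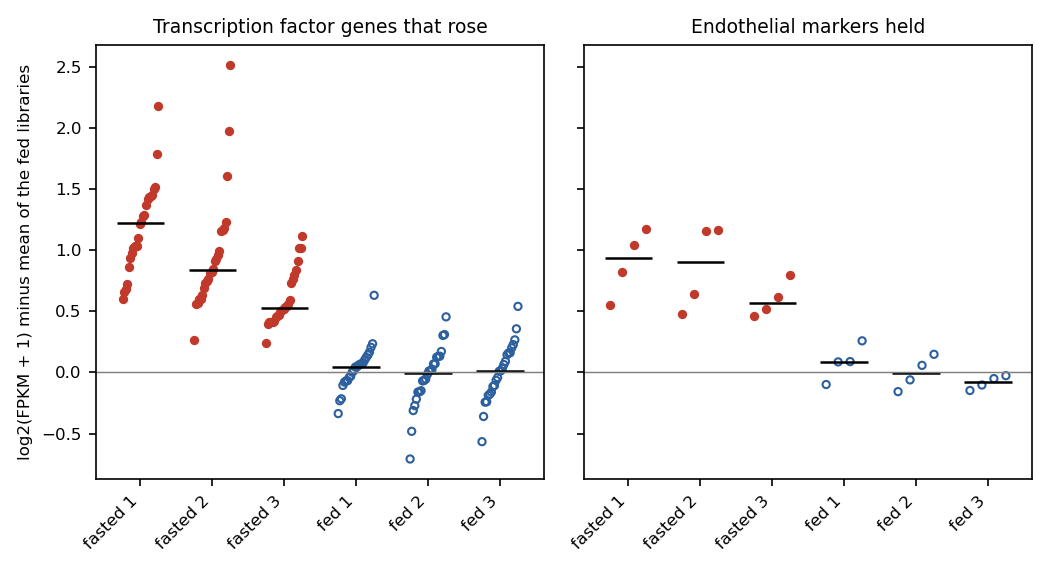
Each library's log2(FPKM + 1) minus the mean of the fed libraries, for the 24 transcription factor genes that rose (left) and the 4 endothelial markers held (right), with fasted libraries in filled red, fed libraries in open blue and medians as bars. The median of the 24 genes was 1.22, 0.84 and 0.53 in fasted replicates 1, 2 and 3, and the fed medians lay between -0.08 and 0.09 in both panels.

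**Figure D5:**
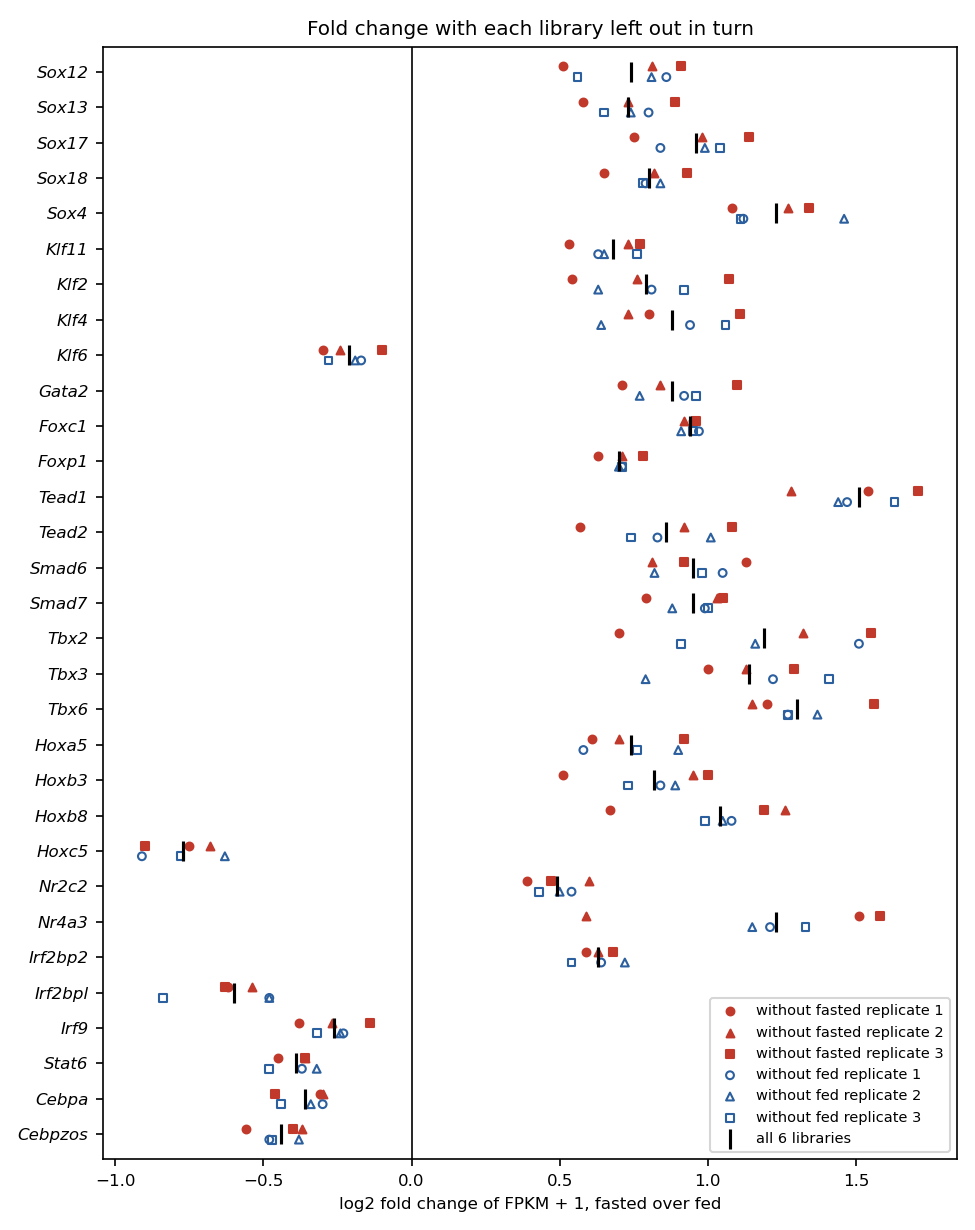
Log2 fold change of 31 of the 32 genes tested, with all 6 libraries (black bar) and with each library left out in turn (red for fasted, blue for fed). No gene plotted changed sign, Nr4a3 was 0.59 without fasted replicate 2, and Tbx2 was 0.70 without fasted replicate 1.

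Genes that act with these families were read from lists chosen with earlier results of these data known. Their counts stand against the 41.1% of all genes tested that were called higher and the 49.4% called lower. With adjustment over all annotated genes, 0 genes passed in the lists of coregulators, of STAT signalling and of interferon responses. Under it 3 rises passed in the FOXO list, 1 each in the nuclear receptor and SMAD lists, and 4 falls among the other adipocyte factors. Of 24 nuclear receptor genes with other names, 7 were held and tested, 4 higher and 3 lower. Rxrg, a partner receptor of many others, fell (-1.28 ± 0.23), whereas Thrb, a thyroid hormone receptor gene (0.65 ± 0.14), and Ppara, whose product turns on fatty acid oxidation (0.70 ± 0.15), rose. Falls numbered 1 with median-ratio scaling and 1 without fed replicate 3, fasted replicate 1 or fasted replicate 3. Of 27 coregulators 7 were held, 3 higher, 3 lower and 1 not called. Nrip1, a corepressor gene of fat (-0.78 ± 0.17), and Tbl1x (-0.44 ± 0.12) fell, and the coactivator genes Carm1 (0.50 ± 0.13) and Ppargc1a (0.90 ± 0.24) rose. Tbl1x was not called with median-ratio or quantile scaling (adjusted p = 0.108 and 0.0655), median-ratio scaling left 1 fall in the list, and Ppargc1a was 1.51 with a pseudocount of 0.1.

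Around the STAT genes, 6 of 37 listed receptors, kinases and inhibitors were held, and 4 fell, 0 rose and 2 were not called. Cish, a feedback inhibitor and target of STAT5, had 5.23, 4.84 and 4.0 FPKM in fasted tissue, against 41.3, 14.5 and 13.2 FPKM in fed tissue (-1.89 ± 0.39; adjusted p = 0.0052). Ptpn11, a phosphatase gene (-0.74 ± 0.12), Prlr, the prolactin receptor gene (-0.75 ± 0.19), and Ghr, the growth hormone receptor gene (-0.71 ± 0.28), fell too. For Ghr the groups overlapped, with fasted replicate 3 at 564 FPKM above fed replicates 1 and 2 at 519 and 553 FPKM. The Ghr call was lost with either scaling (0.0738 to 0.165) and without any 1 library other than fasted replicate 3 (0.0579 to 0.143). Of 38 interferon-response genes 10 were held, of which 6 fell, 1 rose and 3 were not called (median -0.48). Ifi27 fell (-0.82 ± 0.14), with 174, 174 and 177 FPKM in fasted tissue, against 290, 372 and 275 FPKM in fed tissue. Lgals3bp (-0.87 ± 0.24) and Ifi35 (-0.53 ± 0.14) fell and Trim25 (0.62 ± 0.17), a ubiquitin ligase gene of antiviral sensing, rose. Falls in this list numbered 3 when fasted replicate 2 was dropped. Median-ratio scaling left 2 and ended the fall of Lgals3bp (-0.66; adjusted p = 0.0526), as did quantile scaling (0.0636).

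Around the SMAD genes, 15 of 46 listed ligands, receptors and regulators were held, 7 higher and 8 lower. Eng, the endothelial co-receptor endoglin and also one of the endothelial markers, rose (1.04 ± 0.14), as did Fst, the activin-binding protein follistatin (1.31 ± 0.24). The related inhibitor gene Fstl3 (-1.28 ± 0.21) and the ligand gene Tgfb3 (-0.82 ± 0.15) fell. Falls numbered 4 with median-ratio scaling, and 5, 4 and 3 without fed replicate 3, fasted replicate 1 and fasted replicate 2. Of 30 regulators and reported targets of FOXO proteins, 14 were held, and 11 rose and 3 fell (median 0.87, against -0.34 over all genes tested). Cat, catalase (1.94 ± 0.22), the autophagy kinase gene Ulk1 (1.18 ± 0.12), Pik3ip1 (1.15 ± 0.15) and Fbxo32 (0.85 ± 0.14) rose. Of 55 other transcription factors of adipocytes 21 were held and 19 tested, of which 6 rose, 10 fell and 3 were not called. The smallest p-values were those of Creb3l1 (-1.71 ± 0.16), Srebf1 (-1.54 ± 0.20), Mlxipl (-0.85 ± 0.11) and Zfp423 (-0.97 ± 0.14), all falls. Rises in that list numbered 3 without fasted replicate 1, and falls 5 with median-ratio scaling.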

How the data were processed

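The authors deposited 1 file per library with FPKM values per Ensembl gene, per the file headers, given with 2 decimals. RSEM and the builds mm10 and GRCm38.p6 were used per the submitters' processing notes, and their versions, the aligner and the annotation were not given in the sources read. Read counts were not recovered from these values, so no count test, depth or counting interval is given. Of 3162 genes, 3158 matched the GENCODE GRCm38 annotation. Strand is not given, so reads of overlapping genes could not be separated. Exons of 14 of the 33 genes overlap another annotated gene, of which 0 were held.

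Groups follow the treatment label, replicate numbers are in accession order, and the 3 animals per group are biological replicates per the series' design text. Genes averaging 1 FPKM or more over the 6 libraries were tested with limma 3.58.1 in R 4.3.3 (lmFit, eBayes with trend) on log2(FPKM + 1), two-sided, with Benjamini-Hochberg adjustment over all 2999 genes at 0.05. The fit was tested on simulated data. Fold changes on this scale understate changes of low genes, and adjustment over the genes held, part of those annotated, is no genome-wide false discovery rate. The members, the gene lists and the motifs were chosen with earlier results of these data known. All members but 1, which is not reported here, are named. Values per library are given for up to 4 members of each family with the smallest p and for a fixed set that included Cebpa, and up to 4 genes of each list are named (3 nuclear receptors) by p. Named besides were Klf14 and Sox12, which complete their families, and the markers. The planned description of protein identity between paralogues was not made. Alternatives were another pseudocount, no filter or a filter at 5 FPKM, median-ratio and quantile scaling, no trend, adjustment over all 55450 annotated genes, and each library left out.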

Additional observations from a re-analysis of the deposited data

How the results depend on the processing

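No paired analysis was possible because the labels carry no replicate numbers and no fed mouse is tied to a fasted one. Filters, the fit without trend and the adjustment over all annotated genes leave each fold change as it is and cannot reverse its sign. Nor can leaving out a library reverse a gene whose groups are separate, as in 93.4% of all genes held. In the 410 combinations of a tested transcription factor gene and an alternative, the direction never changed (0 reversals). Of the 384 that concern the genes called, 311 kept the call and 73 lost it, and the 26 of Klf6 and Irf9 gave no call; 28 of those losses came from the adjustment over all annotated genes. The 24 rises numbered 2 under that adjustment and the 6 falls 0, while over all genes the 1232 rises numbered 172 and the 1482 falls 192, because each gene not held was given the largest p. With median-ratio scaling the falls numbered 1 among the transcription factor genes and 787 over all genes. Leaving out 1 library at a time gave 18 to 23 rises and 2 to 6 falls among them, and 1118 to 1221 rises and 1040 to 1300 falls over all genes; falls numbered 2 without fed replicate 2 or fasted replicate 2, and 3 without fed replicate 1 or fasted replicate 3. The cause of these losses was not tested. With 3 mice a group and unknown depth, no statement is made on genes not called.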

Other observations

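Some of these genes lie close to another gene held in the files, and 14 of the 33 had one within 100 kb. Among the 11 such pairs in which both were called, 8 moved the same way and 3 in opposite directions, in a set of genes nearly all of which were called. The 8 include Hoxb3 with Hoxb8, both from these families. The share of neighbours moving the same way among all genes held was not computed, so the 8 of 11 has no background. The closest pair was Tbx6 and Ypel3, 1.0 kb apart on chromosome 7. Ypel3 had 314, 312 and 289 FPKM in fasted tissue, against 155, 124 and 149 FPKM in fed tissue (log2 fold change 1.10 ± 0.13), so it was far more abundant than Tbx6 and rose as well. Sox18 lies 8.7 kb from Tcea2, a transcription elongation factor gene, which had 8.03, 5.86 and 5.38 FPKM in fasted tissue, against 4.12, 2.18 and 2.62 FPKM in fed tissue (0.92 ± 0.22). Sox12 lies 49.6 kb from Trib3, a stress-induced pseudokinase gene that rose by 2.0 ± 0.20. In the opposite case Klf11 rose while Grhl1, 33.9 kb away, fell to 6.20, 5.97 and 5.94 FPKM in fasted tissue, against 8.46, 11.7 and 18.8 FPKM in fed tissue (-0.92 ± 0.25).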
